A study of Cervus nippon with 4 samples.

Results

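The testis library of Sika Deer at 3 years (Tst_2) was compared with that at 1 year (Tst_1), to ask how much of the transcriptome was switched on, switched off or shifted between the juvenile and the adolescence stage. All animals were of the Shuangyang breed, and every library was made from testis tissue. Tst_1 held the pooled mRNA of 3 animals at 1 year and Tst_2 that of 3 animals at 3 years, with 1 library per age. A pool of that size gives 1 value per gene, so the spread between animals is unknown, no value has an error, and no test was possible. The libraries at 5 years (Tst_3) and 10 years (Tst_4), pooled in the same way, were used to read the level of each gene in samples that the selection did not use. Genes were selected when their FPKM, a fragment number that the authors corrected for gene length and for library size, was above 5 in Tst_1 or in Tst_2. The selection took 38564 genes, which were 7.09% of the 543638 identifiers listed in either library and 6.13% of the 629520 listed in any of the 4. Each identifier is called a gene here, but the lists hold far more identifiers than the study counted as expressed unigenes. Shares of genes are therefore shares of identifiers. No gene names stand beside the identifiers in the deposited lists, and 0 of these identifiers were found in the parts of the study's supplementary tables used here, so that neither the functions of the genes nor the defining markers of testis cell types could be looked up, and the tissue label could not be checked.

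The testis holds seminiferous tubules, in which germ cells divide and differentiate beside Sertoli cells, and interstitial tissue with the Leydig cells that make testosterone. Before spermatogenesis is established the tubules hold mainly Sertoli cells and early germ cells, whereas spermatocytes and spermatids fill them afterwards. According to the paper, germ cell types by stage are unreported in deer, while juvenile cattle testes already hold spermatocytes and spermatids. These late germ cells are known for transcribing many genes that are silent in other tissues. In bulk tissue, fewer cells of a type and less RNA per cell cannot be told apart.

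Tst_1 listed 422330 genes and Tst_2 listed 351289, and a gene missing from a list was taken as 0. The FPKM values summed to 870245 in Tst_1 and 857794 in Tst_2. The selected genes held 70.8% of the summed FPKM in Tst_1 and 80.2% in Tst_2. The number of genes above 5 FPKM was 27815 in Tst_1 and 23370 in Tst_2. Above 100 FPKM the order was the opposite, with 606 genes in Tst_1 and 915 in Tst_2. It turned again above 500 FPKM, with 105 genes in Tst_1 and 67 in Tst_2. The paper gives nearly equal totals of clean reads for Tst_1 and Tst_2, and lower totals for Tst_3 and Tst_4. Read counts per gene and gene lengths are not part of the lists, so the number of reads behind each value is unknown.

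Of the 38564 genes, 12621 (32.7%) were above 5 FPKM in both libraries. Another 15194 (39.4%) passed that level in Tst_1 alone and 10749 (27.9%) in Tst_2 alone. The log2 ratio (Tst_2 over Tst_1) of each gene was taken after adding 0.1 to both values, which understates the difference of genes with a low value. A ratio above 1, that is, a difference of more than 2-fold, was found for 12232 genes (31.7%), and a ratio below -1 for 16813 (43.6%). Among the 321316 genes above 0.3 FPKM in either library, 30.2% were higher and 53.5% lower by the same threshold, so the share of higher genes lay close to this background and the share of lower genes below it. The ratio of the remaining 9519 genes (24.7%) was within 1.

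The ratios spread far on both sides, from -10.96 to 15.17. The quartiles were -2.13 and 1.95, with a median of -0.60. Only 4576 genes (11.9%) lay within 0.5 of equal levels. The upper side had the longer tail. At a log2 ratio past 4, 6484 genes were higher and 3050 lower, and past 8 there were 878 higher and 28 lower. Which side held more genes depended on the scaling. Of the genes past 2-fold, 42.1% were higher with the deposited values, 70.1% after a trimmed-mean factor and 71.8% after a median-of-ratios factor, which raised the median ratio of the selected genes by 0.85 and 0.91. These factors rested on the 229981 genes listed in both libraries, of which 5.49% were above 5 FPKM in both. With a factor taken from the genes above 5 FPKM in both libraries, which shifted the median by 0.20, the share was 48.7%. The share of genes within 2-fold stayed between 24.4% and 27.5% under all these scalings.

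**Figure D1:**
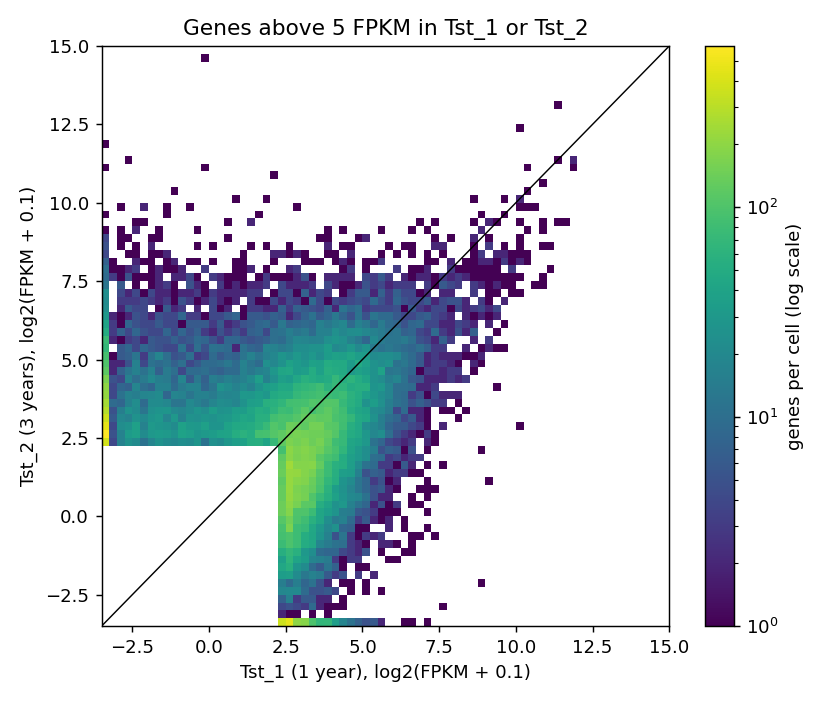
Log2(FPKM + 0.1) of the 38564 genes in Tst_1 (horizontal axis) and Tst_2 (vertical axis), with the number of genes per cell in colour on a log scale and the line of equal levels in black. Genes not listed in Tst_1 form the column at the left edge (3592 genes) and those not listed in Tst_2 the row at the bottom (1513 genes), and the left column reaches much higher levels than the bottom row.

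A gene was taken as switched on when it was above 5 FPKM in Tst_2 and below 0.3 FPKM, or not listed, in Tst_1, and as switched off in the reverse case. By this rule 5280 genes (13.7%) were on and 2212 (5.74%) off. Among all 543638 genes listed in either library, 22.3% were on and 38.9% off when a log2 ratio past 1 replaced the 5 FPKM limit. Both shares of the selected genes thus lay below those over all genes, where the order was the reverse. The 0.3 FPKM limit is the level above which the study counted a unigene as expressed. Another 6952 of the selected genes (18.0%) were shifted up without being absent before, and 14601 (37.9%) were shifted down while still at 0.3 FPKM or more in Tst_2. Thus the higher genes were often near or at 0 in Tst_1, whereas the lower genes were mostly still present in Tst_2. Among the switched-on genes, 3592 were not listed in Tst_1 at all, and the highest of these reached 3677 FPKM in Tst_2. For the switched-off genes, 1513 were not listed in Tst_2, and the highest of these had 146.4 FPKM in Tst_1. The median level of the switched-on genes in Tst_2 was 10.3 FPKM, with quartiles of 6.70 and 20.6. That of the switched-off genes in Tst_1 was 6.57 FPKM, with quartiles of 5.65 and 9.08, so most of them lay just above the limit of 5 FPKM. On each scaling tried there were more switched-on than switched-off genes. The counts were 5280 against 2212 as deposited, 6084 against 2860 with each library scaled to an equal sum, and 7831 against 896 after the median-of-ratios factor. The order turned with the limit on the level, as 34186 genes were on and 43958 off when 1 FPKM was used in place of 5 FPKM.

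The switched-on genes made up 16.2% of all FPKM in Tst_2, and the switched-off genes 2.23% of all FPKM in Tst_1. The genes shifted up held 5.07% of the sum in Tst_1 and 33.8% in Tst_2. The genes shifted down held 41.3% in Tst_1 and 9.38% in Tst_2. In contrast, the genes within 2-fold held 22.1% in Tst_1 and 20.7% in Tst_2. The largest single share of FPKM belonged to genes shifted down in Tst_1 and to genes shifted up in Tst_2. The classes were formed from these same values, so this order follows in part from the rule. Because FPKM is corrected for gene length, these shares stand for numbers of transcripts rather than of reads.

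The limit of 5 FPKM did not mark a break in the data. Of the 3544 genes whose higher value lay between 4.5 and 5 FPKM, 26.2% were higher and 54.3% lower in Tst_2. Of the 2897 genes between 5 and 5.5 FPKM, 24.1% were higher and 54.4% lower.

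The direction of the differences changed with the expression level, taken as the higher of the FPKM values of a gene in both libraries. That level uses the same values as the direction, so the split in part restates how many genes each library had at a level. Between 5 and 10 FPKM, 25.8% of 17583 genes were higher in Tst_2 and 50.1% lower with the deposited values. The gap narrowed to 33.4% higher against 35.2% lower after the trimmed-mean factor, and to 34.1% against 34.3% after the median-of-ratios factor. On the deposited scale, the share of higher genes was 29.2% between 10 and 20 FPKM and 40.8% between 20 and 50 FPKM. In the interval from 50 to 100 FPKM it was 53.7% of 2014 genes, against 28.1% lower. From 100 to 500 FPKM, 54.8% of 1148 genes were higher and 29.6% lower. At the top of the range the order was reversed, as 27.4% of the 146 genes above 500 FPKM were higher and 54.8% lower. From 50 to 500 FPKM the higher genes outnumbered the lower under each scaling. Above 500 FPKM the lower genes outnumbered the higher under each scaling, but after the median-of-ratios factor the counts were close, with 49 higher and 53 lower. Between 10 and 20 FPKM the side with more genes turned under the trimmed-mean and median-of-ratios factors, with 39.4% and 40.1% higher against 27.4% and 26.4% lower.

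Switching off took its largest share of genes at low levels, whereas the share switched on varied less with the level. In number, most switched-on genes also lay at low levels, with 2566 between 5 and 10 FPKM and 1354 between 10 and 20 FPKM. The share of switched-off genes was 10.1% between 5 and 10 FPKM, 3.35% between 10 and 20 FPKM and 0.990% between 20 and 50 FPKM. Above 100 FPKM there were 3 such genes among 1294, all of them below 500 FPKM. The share of switched-on genes, on the other hand, stayed between 11.0% and 17.9% in all 6 intervals, and 222 of these genes were above 100 FPKM. A gene between 5 and 10 FPKM needs a smaller fold difference to pass below 0.3 FPKM than a gene above 100 FPKM does, and this holds alike for both directions.

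**Figure D2:**
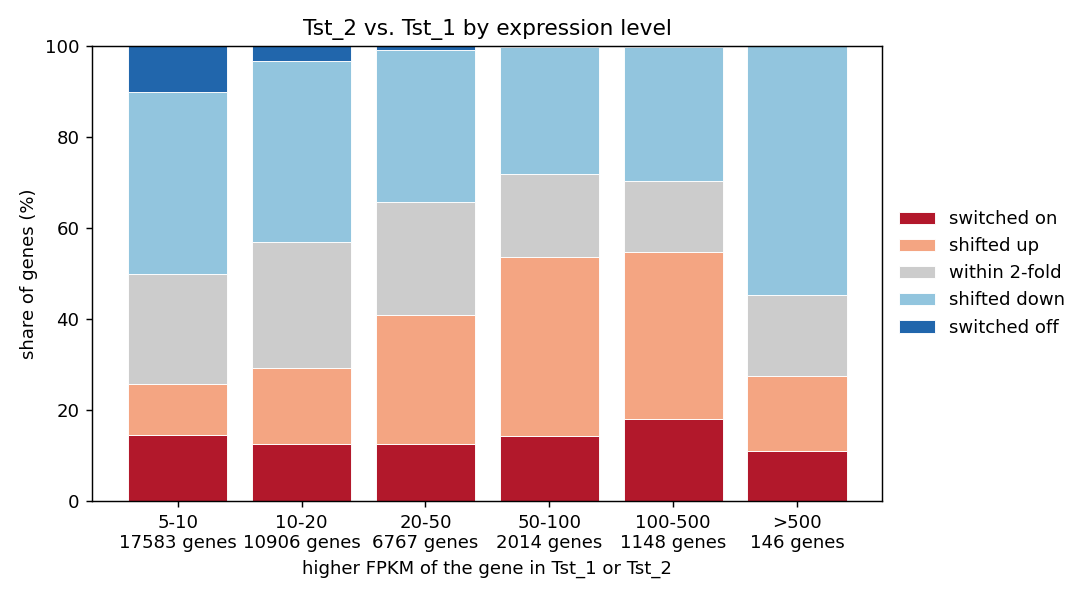
Share of genes (vertical axis, percent) that were switched on, shifted up, within 2-fold, shifted down or switched off in Tst_2 vs. Tst_1, by the higher FPKM of the gene in the pair (horizontal axis, with the number of genes). The share switched off narrows from 10.1% in the lowest interval to 0 of 146 genes above 500 FPKM, whereas the share switched on is 14.6% in the lowest interval and 17.9% from 100 to 500 FPKM.

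Following genes from Tst_1 to Tst_2 and back counts the same switched genes again, so it adds only the levels of the other genes. Of the 606 genes above 100 FPKM in Tst_1, 227 were above 100 FPKM in Tst_2 as well, and 95.2% were above 5 FPKM. Only 3 of them (0.495%) were below 0.3 FPKM or not listed in Tst_2, and the median level there was 67.4 FPKM. Of the 915 genes above 100 FPKM in Tst_2, 222 (24.3%) were below 0.3 FPKM or not listed in Tst_1, where the median was 10.6 FPKM. For genes between 20 and 100 FPKM the corresponding shares were 1.45% of 4882 genes of Tst_1 and 19.4% of 5880 genes of Tst_2. In the later libraries, which share Tst_1 as the partner here, 4 of the 606 Tst_1 genes were below 0.3 FPKM in Tst_3 and 7 in Tst_4. In turn, 20.4% of the 800 genes above 100 FPKM in Tst_3 and 24.7% of the 910 in Tst_4 were below 0.3 FPKM in Tst_1. Between Tst_2 and Tst_3, 2 of the 915 genes of Tst_2 were below 0.3 FPKM in Tst_3, and 0 of the 800 genes of Tst_3 in Tst_2.

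Individual genes are given by identifier for the highest level on each side. On the higher side, c693433_g1 went from near rank 125207 with 0.81 FPKM at 1 year to rank 1 with 26561 FPKM at 3 years. Its FPKM was 14666 at 5 years and 25478 at 10 years, again the highest of each library. The gene c464920_g1 was high at every age. It had 2766 FPKM at 1 year, 8237 at 3 years, 7163 at 5 years and 10047 at 10 years, and it moved from rank 6 to rank 2 with a log2 ratio of 1.57. On the lower side, c678900_g1 had 3062 FPKM at 1 year, 623.4 at 3 years, 478.6 at 5 years and 362.0 at 10 years. It went from rank 4 to rank 50 with a log2 ratio of -2.30. The FPKM of c685102_g4 was 2814 at 1 year, 671.5 at 3 years, 586.9 at 5 years and 576.6 at 10 years, with a log2 ratio of -2.07 and a move from rank 5 to rank 46. Hence both of the lower genes were still among the 50 highest of Tst_2, while the first of the higher genes came from a low level. For each of the 4 genes the later libraries lay on the same side of Tst_1 as Tst_2 did. The genes were picked by their values in Tst_1 and Tst_2, which can give this in part.

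The 10 highest genes of Tst_1 were all still abundant in Tst_2. Their FPKM ran from 2009 to 4006 in Tst_1 and from 166.2 to 8237 in Tst_2, and the lowest of their ranks there was 439. The gene at rank 1 in Tst_1 had 4006 FPKM there and 2888 FPKM in Tst_2, where it ranked 5. The gene at rank 2 had 3870 FPKM in Tst_1 and 2563 FPKM in Tst_2, and the gene at rank 3 had 3447 and 2109 FPKM. These 3 genes and the gene at rank 7, with 2586 and 2541 FPKM, were within 2-fold. The largest difference belonged to the gene at rank 10 in Tst_1, with 2009 FPKM at 1 year, 166.2 at 3 years, 124.8 at 5 years and 71.2 at 10 years.

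The 10 highest genes of Tst_2 came from very unequal levels in Tst_1. Of these genes, 4 were at or below 1 FPKM or not listed in Tst_1, and the other 6 had at least 1086 FPKM there. The gene at rank 4 in Tst_2 was not listed in Tst_1 and had 3677 FPKM at 3 years, 2511 at 5 years and 3881 at 10 years. The gene at rank 6 had 0.05 FPKM at 1 year, 2623 at 3 years, 1095 at 5 years and 1850 at 10 years. At rank 10 stood a gene with 0.83 FPKM at 1 year, 2195 at 3 years, 2403 at 5 years and 2506 at 10 years. Between these extremes no gene of the 10 had an intermediate level in Tst_1.

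**Figure D3:**
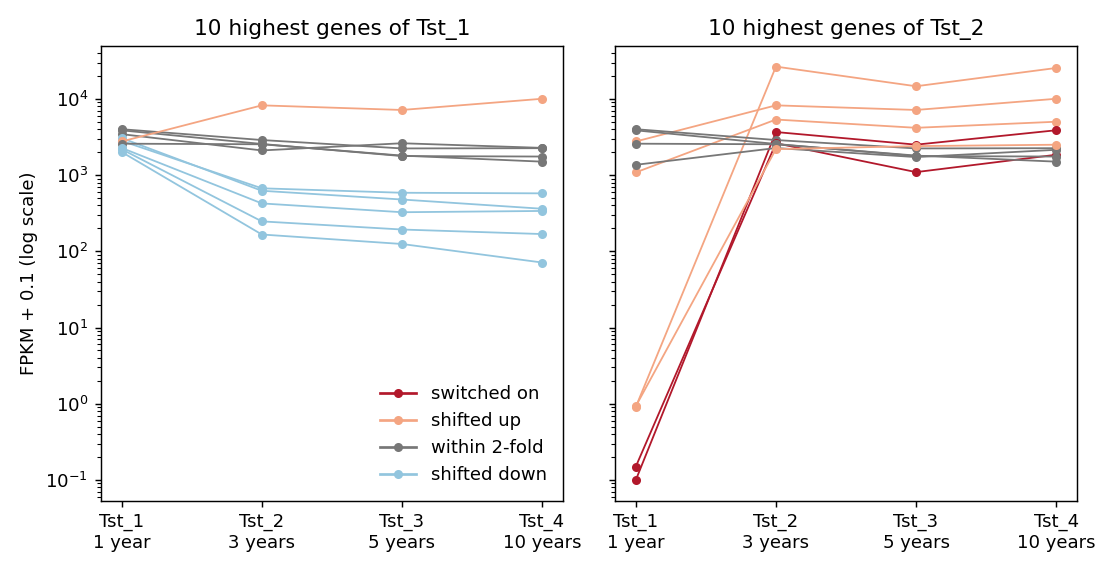
FPKM + 0.1 on a log axis in the 4 libraries for the 10 highest genes of Tst_1 (left) and of Tst_2 (right), 1 line per gene, coloured by its class in Tst_2 vs. Tst_1. On the left the lines stay at or above 71.2 FPKM at every age, while on the right 4 lines start below 1 FPKM in Tst_1 and reach at least 2195 FPKM in Tst_2.

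When genes were ranked by FPKM, Tst_1 and Tst_2 shared 4 of the first 10, 30 of the first 100, 280 of the first 1000 and 1686 of the first 5000 genes. The shared part was thus between 28.0% and 40.0% at every depth of the ranking taken. Tst_2 and Tst_3 shared 85 of the first 100 and 859 of the first 1000 genes. For Tst_3 and Tst_4 the numbers were 89 and 878. Each pair is a comparison of single libraries, and the pairs have a library in common, so that the difference between them was not tested. With 1 identifier kept per component, that is, the part of the identifier before the gene number, 31 of the first 100 and 294 of the first 1000 were shared by Tst_1 and Tst_2.

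The 70 genes that entered the first 100 in Tst_2 had a median of 1.61 FPKM in Tst_1. Of these, 15 came from within the first 1000 genes of Tst_1, 10 from ranks 1001 to 10000 and 35 from ranks past 10000, and 10 were not listed in Tst_1. A total of 42 were at or below 5 FPKM in Tst_1. The 70 genes that left the first 100 behaved differently. Their median in Tst_2 was 174.8 FPKM, and 52 of them were still within the first 1000 genes of Tst_2. Only 1 of the 70 was at or below 5 FPKM there. Among the first 1000, 416 of the 720 entering genes were at or below 5 FPKM in Tst_1, and 75 of the 720 leaving genes were at or below 5 FPKM in Tst_2. In Tst_3, the 15 genes that entered the first 100 had a median of 359.1 FPKM in Tst_2 and all came from within the first 1000.

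Together, the first 100 genes of Tst_1 held 12.4% of the FPKM in that library and 6.58% of the FPKM in Tst_2. The first 100 genes of Tst_2 held 14.2% in Tst_2 and 6.28% in Tst_1. Of the first 100 genes of Tst_1, 76 were lower by more than 2-fold in Tst_2, 22 were within 2-fold and 2 were higher. After the median-of-ratios factor 49 were lower and 7 higher. Of the first 100 genes of Tst_2, 27 were switched on, 38 shifted up, 27 within 2-fold and 8 shifted down. For this list the median-of-ratios factor gave 76 higher and 3 lower. Each list was ranked on a library that was then compared, so these directions and changes in share follow in part from the ranking. FPKM was also more concentrated in Tst_2, as 50% of the sum was reached with 8047 genes in Tst_1 and 4076 in Tst_2.

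**Figure D4:**
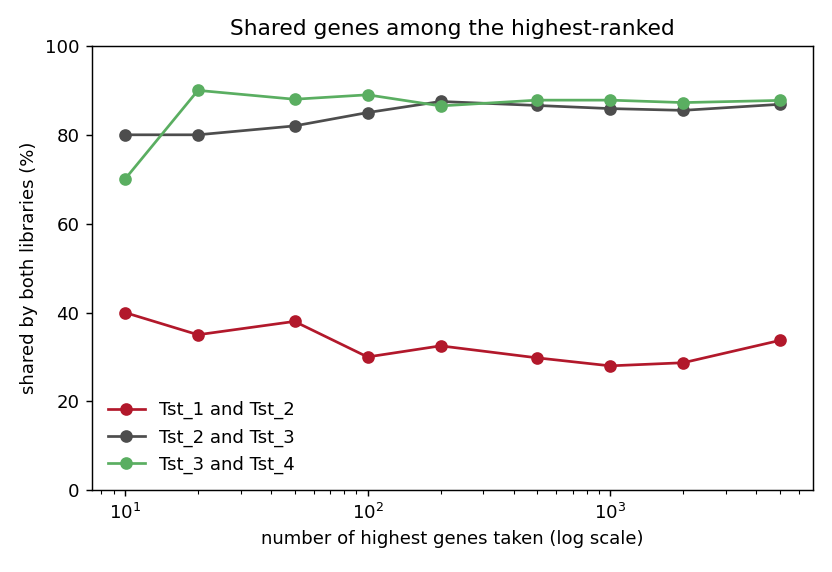
Share of genes (vertical axis, percent) that both libraries of a pair had among their highest genes, for the first 10 to 5000 genes by FPKM (horizontal axis, log scale). The pair Tst_1 and Tst_2 stays between 28.0% and 40.0%, below the pairs of later libraries, which lie between 70% and 90%.

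Not all of the highest genes turned over. There were 125 genes above 100 FPKM in both Tst_1 and Tst_2 with a ratio within 2-fold, of which 106 were above 100 FPKM in Tst_3 and Tst_4 as well. At a level above 500 FPKM in both libraries, 19 genes were within 2-fold, with log2 ratios from -0.73 to 0.73, and 17 of them were above 500 FPKM in all 4 libraries.

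The levels at 5 and 10 years were read for the same classes, since neither Tst_3 nor Tst_4 was used to form them. The switched-on genes had a median of 8.09 FPKM in Tst_3 and 9.13 in Tst_4, against 10.3 in Tst_2. Of the 5280 genes, 3633 (68.8%) were above 5 FPKM in Tst_3 and 3818 (72.3%) in Tst_4. Among those above 20 FPKM in Tst_2, the numbers were 1322 and 1320 of 1360, and all 222 of those above 100 FPKM were above 5 FPKM in both later libraries. By contrast, 279 switched-on genes (5.28%) were below 0.3 FPKM or not listed in both Tst_3 and Tst_4. Those 279 had a median of 5.90 FPKM in Tst_2 and reached at most 60.3 FPKM.

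The switched-off genes mostly stayed low. Of the 2212 genes, 28 (1.27%) were above 5 FPKM in Tst_3 and 27 (1.22%) in Tst_4, and 3 were above that level in both. A total of 1532 (69.3%) were below 0.3 FPKM or not listed in Tst_3 and 1694 (76.6%) in Tst_4. The genes shifted up had a median of 2.90 FPKM at 1 year, 17.6 at 3 years, 16.6 at 5 years and 17.3 at 10 years. The genes shifted down had 10.3 FPKM at 1 year, 2.29 at 3 years, 2.30 at 5 years and 1.77 at 10 years. As each class was chosen for a high or low value in Tst_2, some movement back toward Tst_1 is built into the selection. The classes were equally chosen on Tst_1, so a value peculiar to that 1 library would place the later libraries on the side of Tst_2. The medians of the shifted classes in Tst_3 and Tst_4 lay closer to Tst_2 than to Tst_1, which the selection can give in part.

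**Figure D5:**
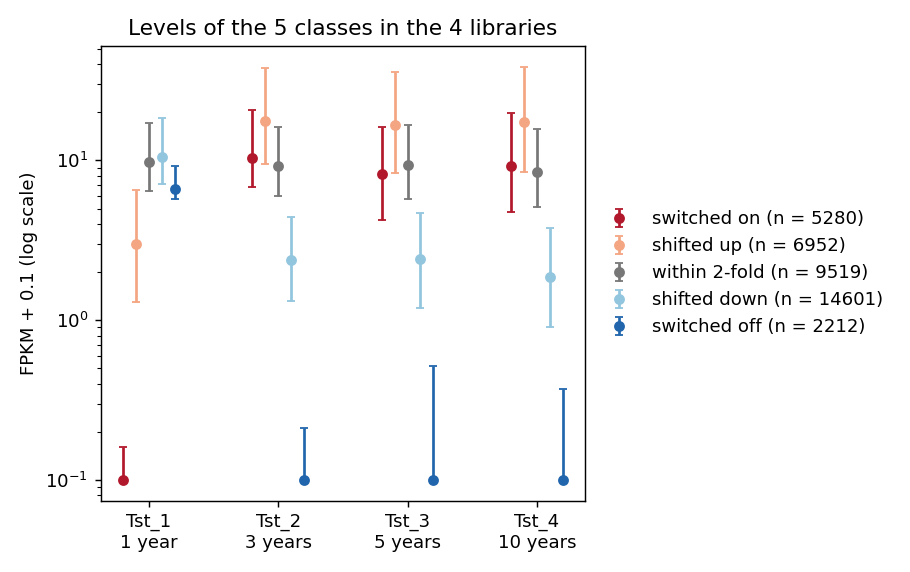
Median (points) and quartiles (bars) of FPKM + 0.1 on a log axis for the 5 classes of genes formed from Tst_1 and Tst_2, in the 4 libraries. In Tst_3 and Tst_4 each class lies near its level in Tst_2, with the switched-on genes at medians of 8.09 and 9.13 FPKM and the switched-off genes at 0.

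The same rule was applied to the following pairs of ages. In Tst_3 vs. Tst_2, 83.2% of 27084 genes were within 2-fold, 8.29% were higher and 8.47% lower. The background over all genes above 0.3 FPKM was 28.8% higher and 23% lower. In this pair 703 genes (2.6%) were switched on and 520 (1.92%) off. In Tst_4 vs. Tst_3, 82.6% of 26859 genes were within 2-fold, 9.04% were higher and 8.35% lower, on a background of 21.8% higher and 29.9% lower. Here 875 genes (3.26%) were on and 826 (3.08%) off. Shares of switched genes over all listed genes were not computed for the later pairs, so their switched counts stand without that background. The median size of the log2 ratio, whatever its sign, was 2.08 between 1 and 3 years, 0.36 between 3 and 5 years and 0.33 between 5 and 10 years. Both later pairs therefore kept most selected genes within 2-fold, where Tst_2 vs. Tst_1 kept 24.7%.

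Identifiers in the lists consist of a component and a gene number. The selected genes belonged to 32091 components, of which 5188 held at least 2 selected genes and the largest held 8. Of those 5188 components, 976 (18.8%) held only higher genes, 1347 (26.0%) only lower genes and 515 (9.93%) only genes within 2-fold. In 630 (12.1%) at least 1 gene was higher and another lower. Switching on and off met in 14 components, where 4881 held a switched-on gene and 2175 a switched-off gene. Most components, 26903 of the 32091, held only 1 selected gene and could not hold both. Where a component had 2 selected genes and both differed by more than 2-fold, the pair had 1 direction in 1941 cases and opposite directions in 390 (16.7% of 2331). Of all selected genes past 2-fold 42.1% were higher, but the share of opposite pairs among unrelated genes was not computed. Identifiers of this form usually group related transcripts of an assembly, in which case the values of 1 component are not independent of each other.

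The classes also differed in how often a gene was the only listed identifier of its component in the 4 libraries. This was so for 63.9% of switched-off genes, 49.3% of switched-on genes, 34.4% of genes shifted down, 22.3% of genes shifted up and 21.0% of genes within 2-fold. Between 5 and 10 FPKM, where levels are alike, the order was the same, with 65.4% of 1773 switched-off genes, 54.8% of 2566 switched-on genes and 24.7% of 4244 genes within 2-fold.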

How the data were processed

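FPKM values for 4 testis mRNA libraries, 1 per age and each from the pooled RNA of 3 animals, were computed by the authors and deposited to 2 decimals as lists of identifiers with values down to 0.01. Libraries were poly-A selected with a directional kit and sequenced on an Illumina platform. No aligner, counter, assembly or annotation is named for them (not given in the sources used here). Ages came from the sample labels. Lists were joined on the identifier, and missing genes were set to 0. The selected genes, classes and levels were chosen with earlier results of these data known. Named genes were the 2 with the highest FPKM in Tst_2 among those with a log2 ratio above 1, and the 2 with the highest FPKM in Tst_1 among those with a ratio below -1. The other genes were described by rank. Equal values were ranked in the order of their identifiers, so ranks at low FPKM are approximate.

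The values are not read counts and there was 1 library per age, so no count model or test was run. Scaling factors were a trimmed mean of log2 ratios, trimmed at each end by 30% of the ratios and 5% of the levels, and a median ratio, each over genes listed in both libraries and shared equally between them. The factor from genes above 5 FPKM in both, and the scalings by expression level, were added after seeing the data. Other alternatives covered the pseudocount, the FPKM limits, the fold threshold and the identifiers counted. Calculations used Python 3.11.15 with numpy 2.4.6, pandas 2.3.3 and matplotlib 3.10.9.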

Additional observations from a re-analysis of the deposited data

How the results depend on the processing

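Counts are given in the order higher, lower, switched on, switched off and within 2-fold, which were 12232, 16813, 5280, 2212 and 9519 in Tst_2 vs. Tst_1. With genes above 1 FPKM they were 45233, 77354, 34186, 43958 and 24205, and above 2 FPKM 25524, 41998, 16069, 15627 and 16500. Above 10 FPKM they were 7699, 8007, 2714, 439 and 5275, and above 20 FPKM 4510, 3306, 1360, 74 and 2259. Without a filter they were 132881, 246110, 121467, 211560 and 164647, as the limit itself sets how many genes enter. The limit also turned the order of switched-on and switched-off genes, with more off than on above 1 FPKM and without a filter, and that of higher and lower genes above 20 FPKM. The trimmed-mean factor gave 19000 higher, 8089 lower and 952 off, and the median-of-ratios factor 19535, 7660 and 896. At a log2 ratio past 2 there were 10365 lower genes and 18671 within the threshold. Below 1 FPKM in the other library, 4994 genes were off. Over the selected genes alone, the switched-on genes held 20.2% of FPKM in Tst_2, the switched-off genes 3.15% in Tst_1, and those within 2-fold 31.2% in Tst_1 and 25.9% in Tst_2. Above 10 FPKM, 2191 switched-on genes were found in Tst_3 and 2466 in Tst_4. Switched-off genes above 1 FPKM numbered 309 in Tst_3 and 219 in Tst_4, and above 10 FPKM 2 and 4. With each library scaled to an equal sum, a different set of 2860 genes was switched off. Of these, 71 were above 5 in Tst_3 and 56 in Tst_4. The shares of FPKM over the selected genes rose by less than 1.5 times, and the other 41 counts stayed within 1.5 times. The 4 named genes kept their sign under every pseudocount and scaling. No paired analysis was possible because only 1 pooled library stood for an age. The reads behind each FPKM are unknown, so genes near 0.3 or 5 FPKM can change class by counting error alone, the size of which could not be computed.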
